A study of Mus musculus with 7 samples.

Results

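The hypoxia-inducible genes examined here are *Hif1a*, *Epas1* and *Arnt*, which encode subunits of the hypoxia-inducible factors (HIF), and *Ldha*, *Pgk1*, *Bnip3*, *Egln3*, *Adm*, *Pdk1* and *Pfkfb3*, which are known targets of HIF. They were chosen by name as HIF genes and hypoxia targets, by a rule that uses no measured value, but with earlier results of these data known. All 10 were found among the 21965 genes counted, and all 10 passed the filter on low counts with 15743 genes in all. Their levels come from RNASeq of spinal cord of young adult C57BL/6 mice after a moderate contusion at T9. The tissue was taken at dpi 3 as a segment centred on the injury epicenter that included the cord around it (the penumbra). Each library is a single mouse: 3 carry the label Bmal1-/-, of which 1 is male, and 4 are WT, of which 2 are male. Every mouse was injured and no uninjured cord is analysed here, so the data compare genotypes and not injury with its absence. The Bmal1-/- mice carry the germ-line allele Arntl tm1Bra of the strain B6.129 in every cell and were bred from heterozygotes. WT mice were bought as C57Bl/6J, with littermates used where possible, so breeding source and genotype cannot be fully told apart.

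HIF is a dimer of an oxygen-regulated subunit, HIF1α (*Hif1a*) or HIF2α (*Epas1*), and the constant subunit ARNT. With oxygen present, prolyl hydroxylases such as EGLN3 mark the α subunits for VHL-dependent breakdown, so HIF activity is set largely at the protein level and an mRNA level does not measure it. Under hypoxia the dimer binds promoters and raises glycolytic and survival genes. BMAL1 (*Arntl*, ARNT-like) belongs to the same bHLH-PAS family of dimerizing transcription factors and binds E-boxes with CLOCK or NPAS2. Contusion disrupts vessels and blood flow of the cord, which makes the tissue around the epicenter hypoxic.

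Promoter sequence was available in the RefSeq tables for GRCm38.p6 for 9 of the 10 genes (not *Epas1*), in 12 windows. The 250 bases before each start were searched on both strands for the HIF core in its 2 spellings, ACGTG and GCGTG, and for the E-box CACGTG, which contains ACGTG on each strand. The stretches shown are those of the 4 genes whose 3 values from libraries labelled Bmal1-/- lay outside all 4 WT values, with capitals for each ACGTG or GCGTG of either strand. Each runs from position -250 to -21 before the start, so that first exons of other transcripts stay out. They lie at chr12:73907617-73907846 (plus strand) for *Hif1a*, chr7:46845554-46845783 (plus strand) for *Ldha*, chr7:138909527-138909756 (minus strand) for *Bnip3* and chr2:11502111-11502340 (minus strand) for *Pfkfb3*. *Ldha* and *Pfkfb3* have 2 windows each, and the window shown is the one that holds the E-box.
Hif1a: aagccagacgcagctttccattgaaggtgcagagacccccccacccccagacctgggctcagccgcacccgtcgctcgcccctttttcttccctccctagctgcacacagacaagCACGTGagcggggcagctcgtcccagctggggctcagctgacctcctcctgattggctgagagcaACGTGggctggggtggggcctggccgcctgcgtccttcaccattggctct
Ldha: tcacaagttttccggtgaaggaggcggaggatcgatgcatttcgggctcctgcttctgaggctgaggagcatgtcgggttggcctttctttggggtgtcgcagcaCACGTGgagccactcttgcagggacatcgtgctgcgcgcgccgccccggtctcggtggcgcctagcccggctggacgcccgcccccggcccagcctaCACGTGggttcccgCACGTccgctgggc
Bnip3: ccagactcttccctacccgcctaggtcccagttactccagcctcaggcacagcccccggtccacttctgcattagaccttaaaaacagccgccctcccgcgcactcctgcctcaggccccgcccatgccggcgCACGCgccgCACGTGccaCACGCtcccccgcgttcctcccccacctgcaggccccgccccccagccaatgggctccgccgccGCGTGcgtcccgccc
Pfkfb3: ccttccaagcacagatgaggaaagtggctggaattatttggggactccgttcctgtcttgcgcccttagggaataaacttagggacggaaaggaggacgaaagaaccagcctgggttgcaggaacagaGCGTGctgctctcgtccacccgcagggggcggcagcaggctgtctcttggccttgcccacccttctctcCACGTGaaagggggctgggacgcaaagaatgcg
In these stretches the core letters form 2 separate sites in *Hif1a*, 3 in *Ldha*, 4 in *Bnip3* and 2 in *Pfkfb3*. Over all genes with a window, 11 of 12 windows held ACGTG or GCGTG, against 38.6% of the 32851 windows in the table. The E-box was in 4 windows (33.3%), against 6.02% of all windows. Those 4 windows were the ones shown, and no window of the other 5 genes held it. Most of the genes were listed as known HIF targets, so a high share of the core can come with the choice of genes. The E-box contains that core, and some genes have 2 windows, so windows are not separate genes. Enrichment was not tested. *Hif1a* and *Ldha* had lower and *Bnip3* and *Pfkfb3* higher levels, so the letters were found with either direction. A match of letters is a description and does not show binding.

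Levels are given as CPM, counts scaled for the size and the composition of each library. The libraries held 38529644 to 44096737 counts. WT replicate 3 stood apart from the other WT libraries: the chi-square per degree of freedom between its counts and theirs was 96.1 to 156, against 14.2 to 34.2 among the other WT libraries. The targeted gene *Arntl* had 24.1, 24.2 and 22.5 CPM under the label Bmal1-/- and 14.7, 15.3, 11.9 and 13.4 CPM in WT, which is not the lower level that a deletion label would give. A count over the whole gene also takes in exons outside a deletion, and reads per exon were not analysed here. *Nr1d1* and *Dbp*, known targets that BMAL1 activates and picked here after their values were seen, both fell. *Nr1d1* had 5.31, 5.41 and 7.28 CPM under that label against 36.4, 36.8, 29.2 and 34.4 CPM in WT (adjusted p = 0.00046), and *Dbp* had 8.72, 7.80 and 8.83 CPM against 27.5, 29.4, 25.3 and 39.3 CPM (adjusted p = 0.0033). Directions rest on the labels as they stand and compare the 3 libraries so labelled, called knockout-labelled from here on, with WT. Markers of neurons, astrocytes and oligodendrocytes, 8 of each, were counted in all libraries, as the labelled tissue requires.

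Of the 10 genes, 1 rose, *Pfkfb3*, and none fell, at an adjusted p under 0.05 (edgeR's quasi-likelihood test). Over all genes tested, 0.654% were called higher, 0.915% lower and 1.57% in either direction. In 4 of the 10 genes the genotypes did not overlap, with *Hif1a* and *Ldha* lower and *Bnip3* and *Pfkfb3* higher, against 26.9% of all genes (13.5% lower and 13.4% higher). At an unadjusted p under 0.05 these same 4 genes passed, against 20.9% of all genes. The median log2 fold change of the 10 genes was -0.029, and that of all genes tested was -0.0057. The other 6 genes had log2 fold changes from -0.21 to 0.03. The list as a whole was therefore centred where all genes were, and the 4 genes without overlap lay on both sides. Over all genes tested, the absolute log2 fold change had a median of 0.18 and an upper quartile of 0.36. Whether the 4 genes exceed the share over all genes was not tested.

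**Figure D1:**
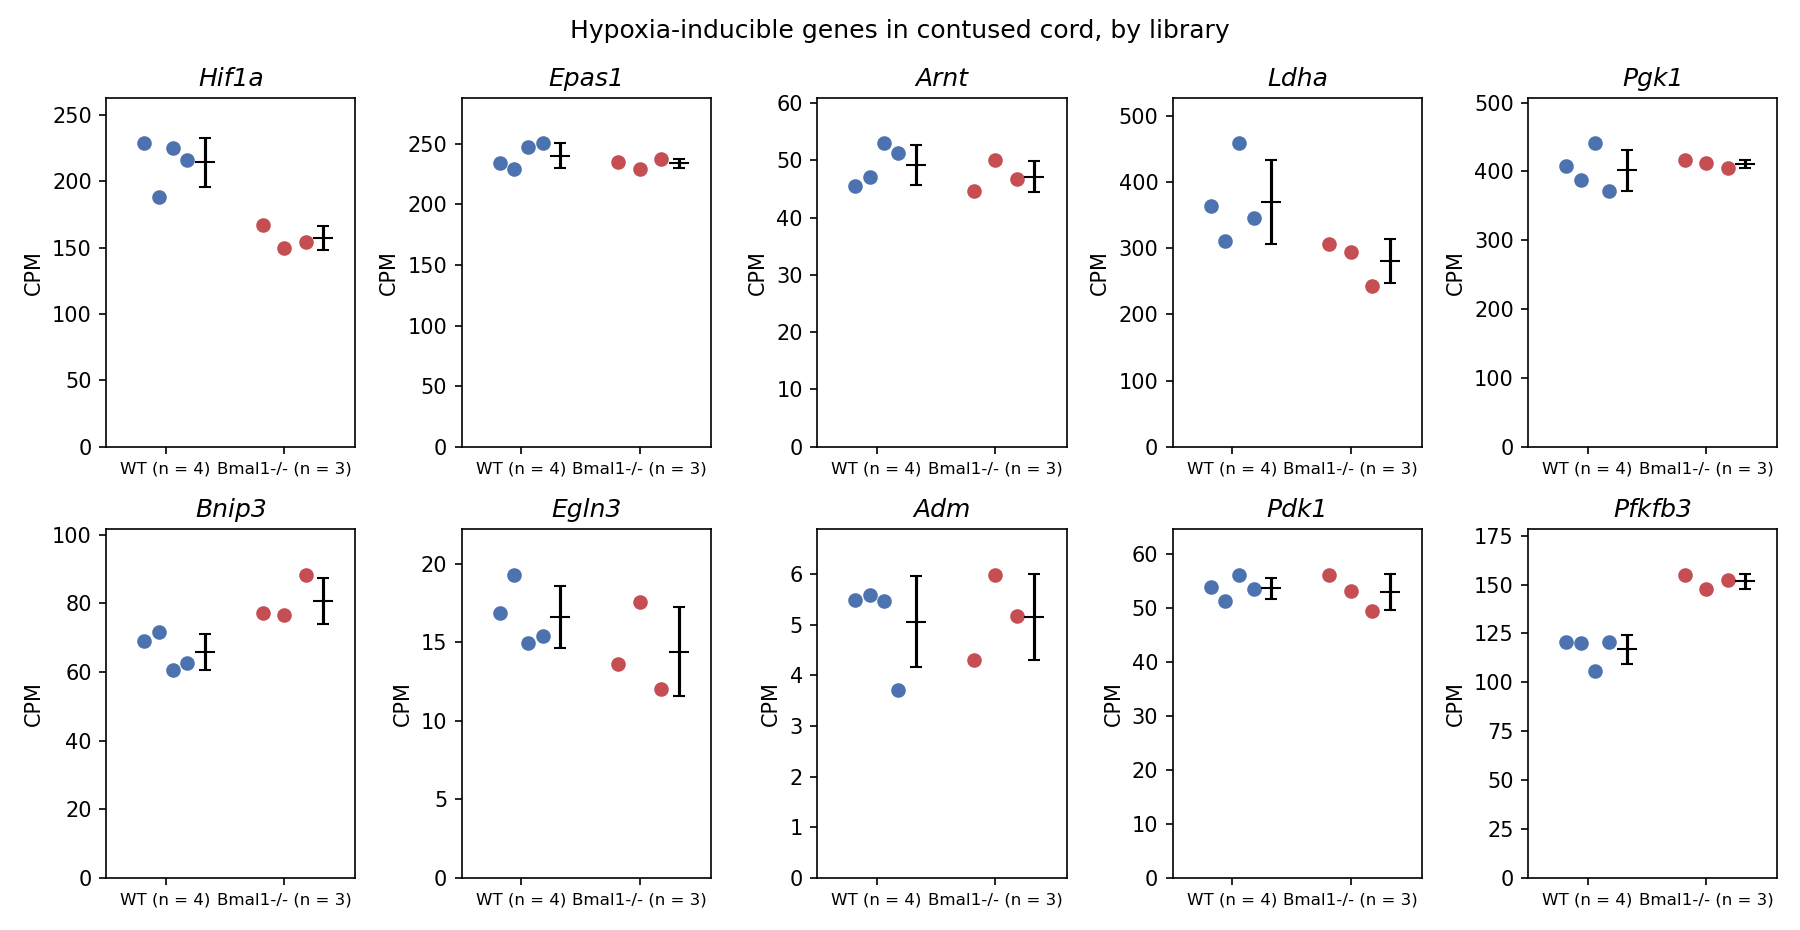
Level of each of the 10 genes in CPM (vertical axes from 0) in the 4 WT libraries (blue) and the 3 knockout-labelled libraries (red), with the mean and SD of each group in black. The red points lie under all blue points for Hif1a and Ldha and over them for Bnip3 and Pfkfb3, and the groups overlap for the other 6 genes.

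Among the HIF subunits, *Hif1a* (ENSMUSG00000021109, chromosome 12, 73901375 to 73947530, plus strand, GRCm38) differed most. It was counted at 228, 188, 225 and 216 CPM in WT replicates 1 to 4. The knockout-labelled libraries held 167, 150 and 154 CPM. Every one of them lay under the lowest WT library, with group means of 157 ± 9.16 (SD, n = 3) and 214 ± 18.4 CPM (SD, n = 4). This is a log2 fold change of -0.45 with a standard error (SE) of 0.09, a level 26.7% under WT, with an adjusted p of 0.0595 that did not pass. DESeq2 called it (adjusted p = 0.00034), and so did edgeR without WT replicate 2 (adjusted p = 0.0462) or without WT replicate 3 (adjusted p = 0.0395), where 4.66% of all genes were called. Its log2 fold change stayed between -0.51 and -0.41 with each library left out, so the size moved less than the call. It was -0.39 between the females and -0.52 between the males. An antisense gene overlaps some of its exons, and since the strand setting of the counting is not given, that part is uncertain. A gene on the same strand that shares exonic bases with it, *Gm49321*, had 0 to 2 counts.

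*Epas1*, the α subunit best known from endothelial cells, was at 235, 230 and 237 CPM in the knockout-labelled libraries. In WT it was at 234, 229, 247 and 250 CPM, and the groups overlapped. On the log2 scale they differed by -0.04 (SE 0.06, adjusted p = 0.72), and it varied least of the subunits, with coefficients of variation of 1.69% (n = 3) and 4.26% (n = 4). *Arnt*, the partner that both α subunits need, was at 44.6, 50.1 and 46.8 CPM against 45.5, 47.1, 52.9 and 51.3 CPM in WT. Its groups overlapped too, at -0.06 on the log2 scale (SE 0.08, adjusted p = 0.623). Whether the change of *Hif1a* differs from those of *Epas1* and *Arnt* was not tested.

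Among the other bHLH-PAS genes, both partners of BMAL1 in the clock rose. *Npas2* rose from 6.89 to 12.2 CPM in WT to 54.2 to 67.3 CPM in the knockout-labelled libraries (log2 fold change 2.62, adjusted p = 0.00092) and *Clock* from 80.5 to 97.1 to 123 to 128 CPM (log2 fold change 0.48, adjusted p = 0.0247). Of 9 relatives tested outside the HIF genes, 3 were called, *Arntl* itself being the third, against 1.57% of all genes. With 1 library left out, *Arntl* kept its call without WT replicate 1, 2 or 3 only, with adjusted p up to 0.102 in the other fits. *Npas2* kept its call with each library left out, and *Clock* without WT replicate 2 or 3 only, with adjusted p up to 0.132 in the other fits and 0.0532 with sex as a covariate. *Ahr*, which encodes another factor that dimerizes with ARNT, had a log2 fold change of -0.54 (adjusted p = 0.131) and did not pass, though its 3 values lay under those of WT.

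Of the feedback regulators, *Egln3* encodes a prolyl hydroxylase that is itself induced by HIF. It was at 13.6, 17.5 and 12.1 CPM in the knockout-labelled libraries and at 16.9, 19.3, 14.9 and 15.4 CPM in WT. The groups overlapped, and the log2 fold change of -0.21 had a standard error of 0.15 (adjusted p = 0.421).

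Among the targets that steer glucose use, *Pfkfb3* (ENSMUSG00000026773, chromosome 2, 11471433 to 11554077, minus strand) rose. It encodes the enzyme that makes fructose 2,6-bisphosphate, the activator of phosphofructokinase and so of glycolysis. The knockout-labelled libraries held 155, 148 and 152 CPM. WT held 120, 120, 106 and 121 CPM. All 3 values lay over the highest WT library, and the 4237 to 6361 counts per library leave little counting error. The mean went from 117 ± 7.37 (SD, n = 4) to 152 ± 3.74 CPM (SD, n = 3), or 29.8% more, which on the log2 scale is 0.38 with an SE of 0.07 (adjusted p = 0.0448). The size was stable, at 0.33 to 0.40 with each library left out and 0.35 to 0.40 under the other settings. The call was not: it was kept without WT replicate 3 (adjusted p = 0.0117) and lost in the other 6 fits that left out 1 library, with adjusted p up to 0.206. DESeq2 called it (adjusted p = 5.3e-06), while limma-voom did not (adjusted p = 0.0551). The log2 difference was 0.33 between females and 0.43 between males.

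*Ldha*, which encodes the lactate dehydrogenase subunit that turns pyruvate into lactate, pointed the other way. It was at 306, 294 and 243 CPM in the knockout-labelled libraries. The WT libraries held 364, 311, 459 and 346 CPM. The groups did not touch, but the lowest WT library lay only just over the highest knockout-labelled one, and WT replicate 3 was the highest of all. The log2 fold change was -0.40 (SE 0.15, adjusted p = 0.206) and -0.28 without WT replicate 3. Between females it was -0.16 and between males -0.71, with an adjusted p of 0.401 for genotype by sex (0.0763 unadjusted). No setting called it. Stretches of 15 other genes, processed pseudogenes among them, have at least 90% identity with *Ldha*, and none of these is in the count table, so its counts are uncertain.

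*Pgk1*, a kinase of glycolysis that yields ATP, was at 417, 412 and 404 CPM in the knockout-labelled libraries and at 407, 387, 440 and 371 CPM in WT. The WT libraries reached both lower and higher, and the log2 fold change was 0.03 (SE 0.08, adjusted p = 0.812). Stretches of 4 other genes, processed copies among them, resemble *Pgk1*, and none is in the count table. *Pdk1*, whose product inhibits pyruvate dehydrogenase, was at 56.1, 53.2 and 49.4 CPM against 53.8, 51.2, 56.0 and 53.6 CPM in WT. On the log2 scale the difference was -0.02 (SE 0.06, adjusted p = 0.864), and its WT spread was the smallest of the 10 genes, with a coefficient of variation of 3.65% (n = 4). Short stretches of *Pdk1* resemble 29 other genes.

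*Bnip3* (ENSMUSG00000078566, chromosome 7, 138890836 to 138909519, minus strand), which encodes a mitochondrial receptor for mitophagy, was higher in each knockout-labelled library. There it was at 77.3, 76.5 and 88.4 CPM. WT held 68.9, 71.7, 60.6 and 62.6 CPM. The log2 fold change of 0.29 (SE 0.08) did not pass (adjusted p = 0.138), though DESeq2 called it (adjusted p = 0.0344), where 9.13% of all genes were called. The log2 difference was 0.13 between females and 0.52 between males, with a single knockout-labelled male. A test of genotype by sex, added after the data were seen, gave an adjusted p of 0.4 for *Bnip3* (0.0133 unadjusted), and none of the 15743 genes passed it (1934 at an unadjusted p under 0.05). An antisense gene overlaps its exons and stretches of 6 other genes resemble it, which leaves its counts uncertain.

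*Adm*, which encodes the vasodilator peptide adrenomedullin, was the least abundant of the 10, with 147 to 258 counts per library. It was at 4.30, 5.99 and 5.18 CPM in the knockout-labelled libraries and at 5.48, 5.58, 5.47 and 3.71 CPM in WT. The knockout-labelled libraries spanned almost the same range, and the log2 fold change was 0.03 (SE 0.19, adjusted p = 0.939). *Adm* lies on chromosome 7, from 110627661 to 110629820, at 2.58 Mb from *Arntl*, where the mutant mice can carry DNA of the donor strain linked to the allele. Within 5 Mb of *Arntl*, 2 of 56 genes tested were called (3.57%), against 1.57% of all genes, and *Adm* was not among them. *Bnip3* and *Ldha* lie on the same chromosome at 25.6 and 66.4 Mb.

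**Figure D2:**
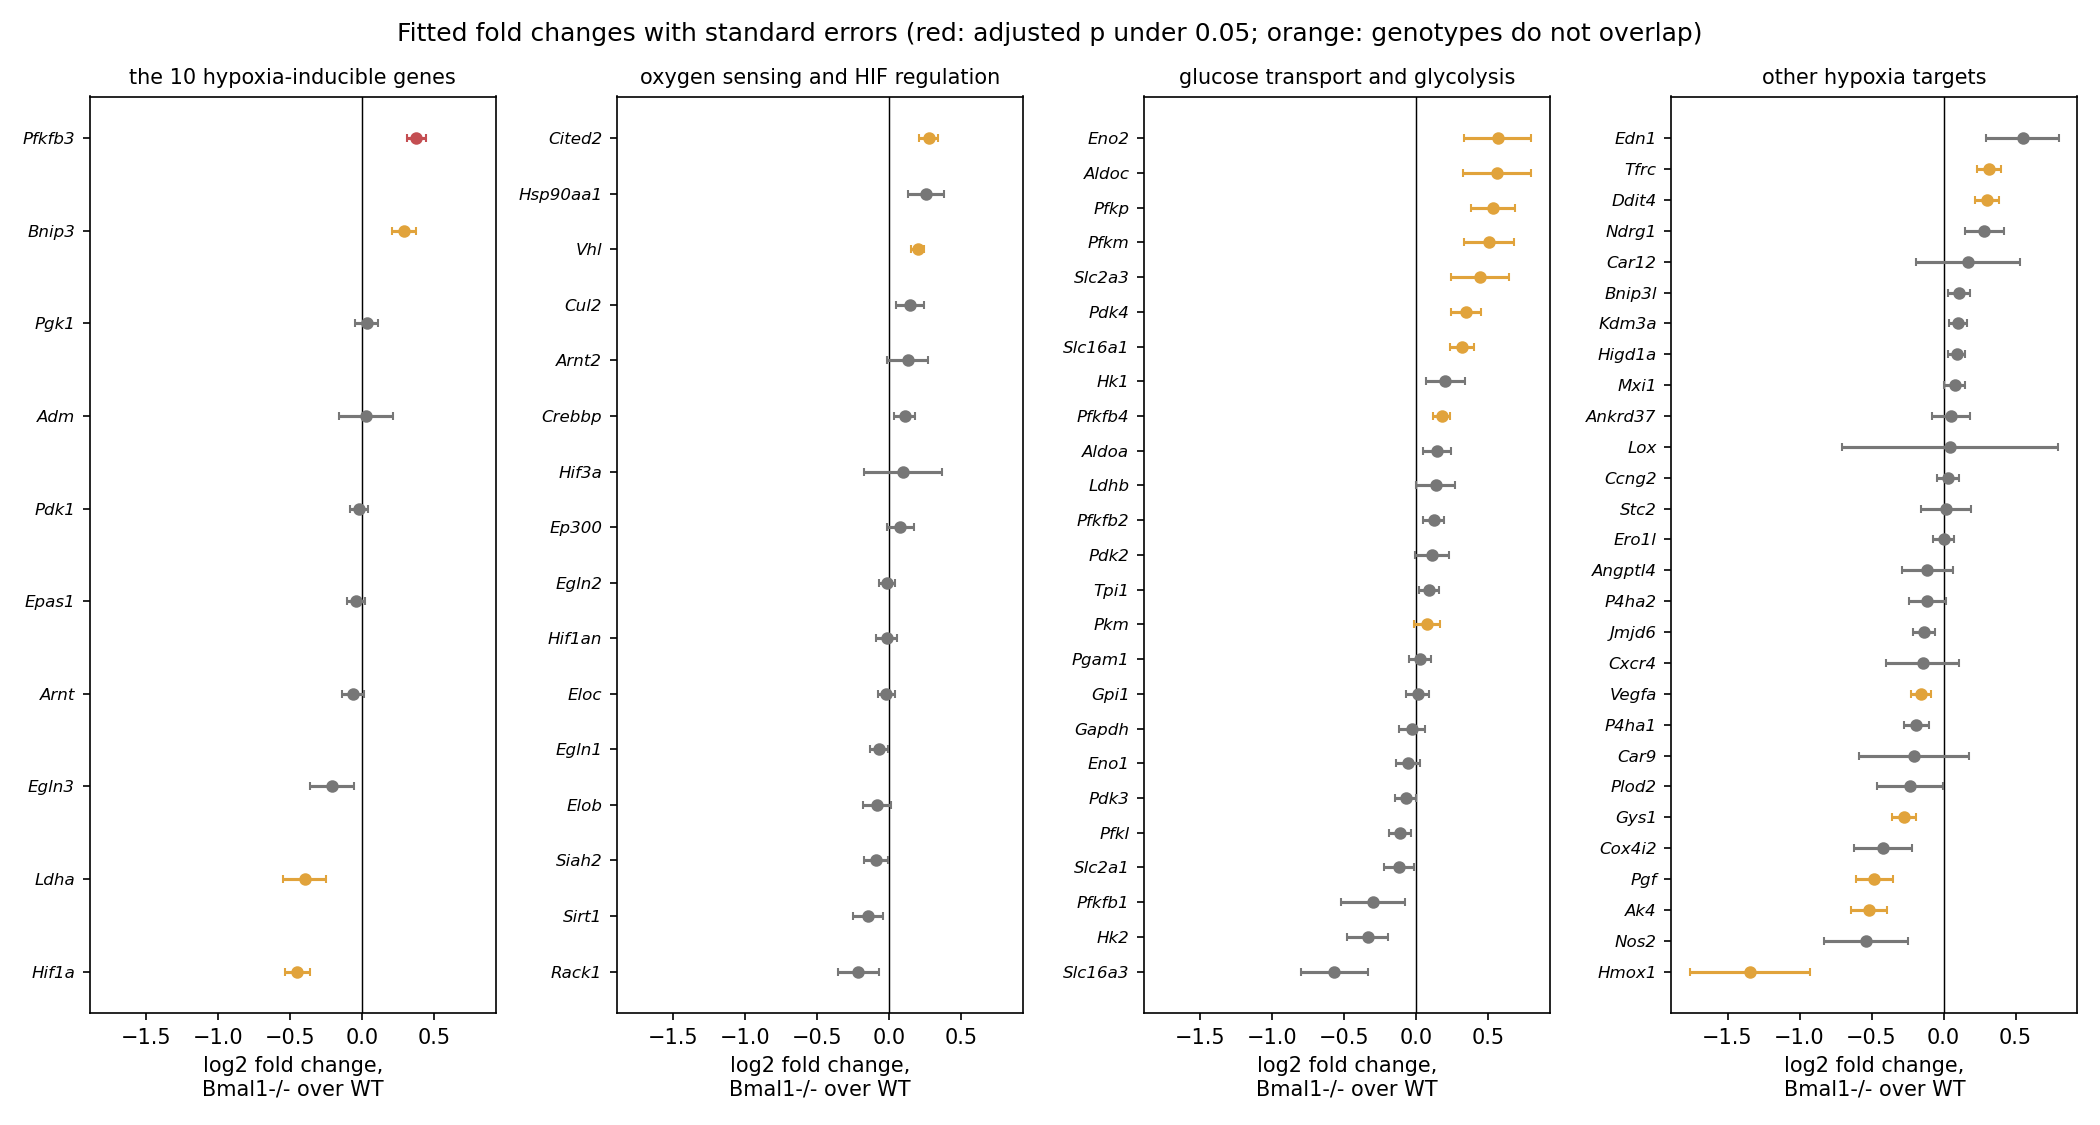
Log2 fold change (horizontal axis, knockout-labelled libraries over WT) with its standard error for the 10 genes and for 3 wider lists, red where the adjusted p was under 0.05 and orange where the genotypes did not overlap. Pfkfb3 at 0.38 is the one red point, and 9 orange points of the glycolysis list all lie to the right of 0.

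The wider pathway was described with 3 lists. None of their 69 tested genes passed with edgeR or limma-voom, and 3 lower and 7 higher genes passed with DESeq2, which called 9.13% of all genes. In the list for oxygen sensing and HIF regulation, 8 of 16 genes lay on each side of 0, around a median of 0.03 on the log2 scale. At an unadjusted p under 0.05 there were none lower and 2 higher, *Vhl* and *Cited2*, against 20.9% of all genes in either direction. The genotypes did not overlap in the same 2 of 16 genes, against 26.9% of all genes. The list thus held no larger share of such genes than all genes did. *Vhl*, the ubiquitin ligase subunit that disposes of HIFα, was at 61.0, 61.9 and 61.6 CPM in the knockout-labelled libraries and at 53.2, 53.7, 53.8 and 53.8 CPM in WT. Its groups were tight and well apart, 0.20 on the log2 scale (SE 0.04, adjusted p = 0.0808, or 0.048 without WT replicate 3). *Cited2*, which competes with HIF for its coactivators, stood 0.28 higher on the log2 scale (SE 0.07, adjusted p = 0.0925). *Hsp90aa1* (0.25) and *Rack1* (-0.21), chaperone and scaffold of HIF1α, overlapped between the groups.

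In the list for glucose transport and glycolysis, 17 of 25 genes were higher and 8 lower, with a median log2 fold change of 0.11. The genotypes did not overlap in 9 of 25 genes, all higher, against 13.4% of all genes on that side. At an unadjusted p under 0.05 there were 7 higher and 2 lower genes, against 20.9% of all genes in either direction. Neuron markers were higher as well, in 8 of 8 genes with a median log2 fold change of 0.49, none of them called by edgeR or DESeq2 and 1 at an unadjusted p under 0.05. The 9 genes include *Eno2* (0.56), *Aldoc* (0.56), *Pfkm* (0.50) and *Slc2a3* (0.44), named after their values were seen, of which *Eno2* and *Slc2a3* are best known from neurons and *Aldoc* from astrocytes. The part of the neuron markers in these values was not tested. *Slc16a1*, a monocarboxylate transporter, was at 205, 181 and 175 CPM in the knockout-labelled libraries against 148, 147, 165 and 140 CPM in WT. The log2 fold change was 0.32 (SE 0.08, adjusted p = 0.117). *Pfkp*, a phosphofructokinase, was at 378, 341 and 386 CPM against 286, 288, 189 and 257 CPM, a difference of 0.53 on the log2 scale (SE 0.15, adjusted p = 0.132) and of 0.41 without WT replicate 3. Both passed without that library (adjusted p = 0.0372 for *Slc16a1* and 0.0316 for *Pfkp*). *Pdk4*, a relative of *Pdk1*, and *Pfkfb4*, a relative of *Pfkfb3*, had log2 fold changes of 0.35 (adjusted p = 0.149) and 0.18 (adjusted p = 0.179).

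In the list of other hypoxia targets, the median of the log2 fold changes was -0.057, with 15 of 28 tested genes on the lower side and 13 on the higher. The genotypes did not overlap in 5 lower and 2 higher of the 28 genes, near the 26.9% of all genes. At an unadjusted p under 0.05 there were 4 lower and 2 higher genes, near the 20.9% of all genes. *Ak4*, an adenylate kinase of mitochondria, was at 17.1, 17.7 and 18.3 CPM in the knockout-labelled libraries and at 25.3, 30.0, 20.6 and 25.3 CPM in WT. The groups did not overlap, and its log2 fold change was -0.52 (adjusted p = 0.0954, or 0.0146 without WT replicate 3). *Pgf*, the placental growth factor of the VEGF family, was also on the lower side at -0.48 (adjusted p = 0.116). On the higher side were *Tfrc*, the transferrin receptor, at 0.32 (adjusted p = 0.115) and *Ddit4*, an inhibitor of mTORC1 signalling, at 0.30 (adjusted p = 0.136).

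**Figure D3:**
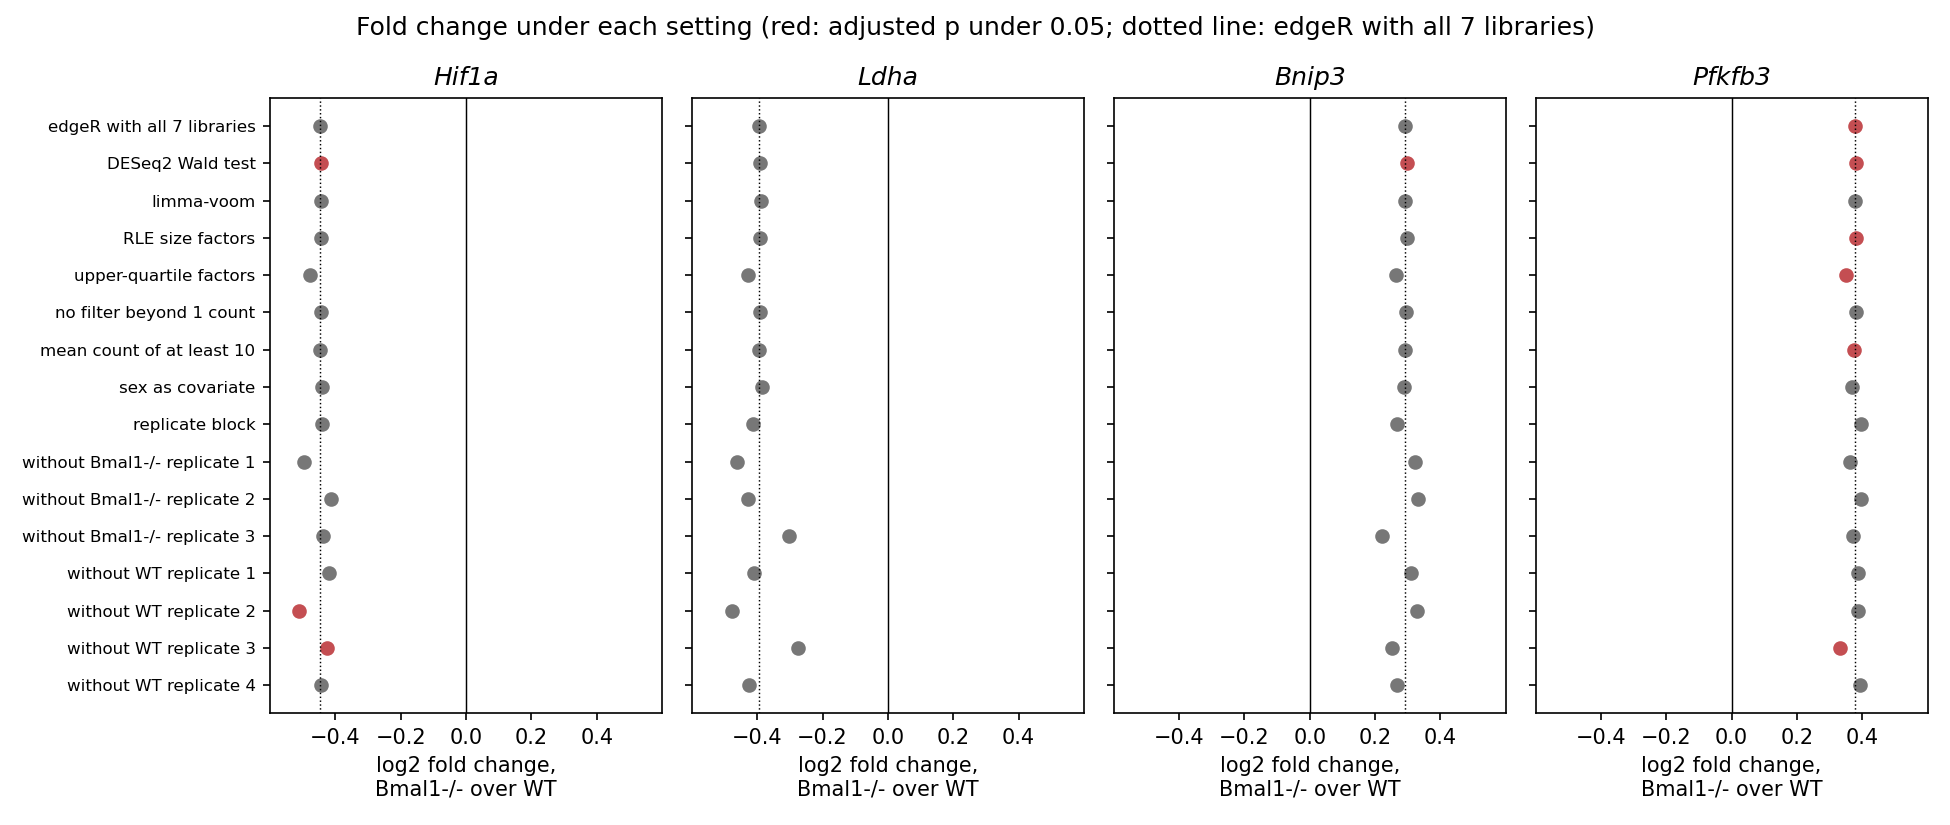
Log2 fold change (horizontal axis) of Hif1a, Ldha, Bnip3 and Pfkfb3 under edgeR with all 7 libraries and 15 other settings (rows), red where the adjusted p was under 0.05. Each gene keeps its side of 0 in every row, Pfkfb3 is red in 6 of 16 rows and Ldha in none.

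Per kb of exon, the 10 genes spanned a 53.7-fold range of median level over the 7 libraries. *Pgk1* stood highest at 181 CPM per kb, then *Ldha* at 93.8, *Epas1* at 42.0, *Hif1a* at 31.9 and *Bnip3* at 31.7 CPM per kb. *Pfkfb3* followed at 16.0, *Pdk1* at 6.89, *Arnt* at 5.88, *Egln3* at 5.78 and *Adm* at 3.38 CPM per kb. The levels of *Pgk1*, *Ldha*, *Bnip3* and, in part, *Hif1a* rest on counts that are uncertain, as given above. Neighbours in this order had separate ranges over the libraries except *Hif1a* with *Bnip3*, *Pdk1* with *Arnt* and *Arnt* with *Egln3*. *Hif1a* and *Bnip3* changed places between the genotypes, which follows from their opposite differences given above and depends on the exonic lengths used. In each WT library *Hif1a* was over *Bnip3*, with 31.9 to 38.7 against 26.7 to 31.7 CPM per kb, and the gap in WT replicate 2 was small (31.9 against 31.7). In each knockout-labelled library it was under *Bnip3*, with 25.4 to 28.4 against 33.8 to 39.0 CPM per kb.

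**Figure D4:**
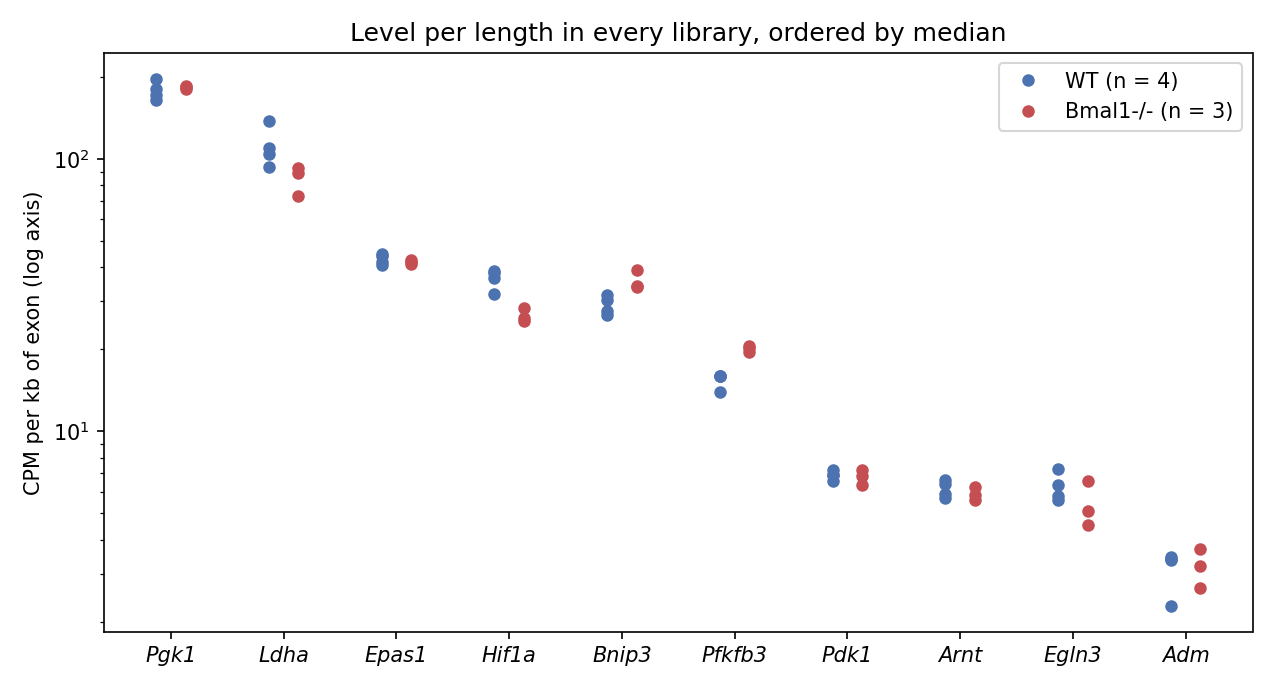
CPM per kb of exon (log axis) of the 10 genes in each WT library (blue) and each knockout-labelled library (red), ordered by the median over all 7. The order runs from Pgk1 at 181 to Adm at 3.38, and only Hif1a, Ldha, Bnip3 and Pfkfb3 show blue and red points that do not overlap.

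The genes whose profile over the 7 libraries was nearest to that of *Hif1a* were *Etv5*, *Sema4b* and *Aldh2*. Their log2 levels, each centred on its own mean, differed from those of *Hif1a* by a root mean square of 0.052, 0.053 and 0.061. *Aldh2*, a mitochondrial aldehyde dehydrogenase, fell (-0.49 on the log2 scale, adjusted p = 0.0191), its WT mean being 181 ± 11.2 CPM (SD, n = 4) and its knockout-labelled mean 128 ± 2.86 CPM (SD, n = 3). *Sema4b* fell too (-0.47, adjusted p = 0.0369), and *Etv5* did not pass (-0.45, adjusted p = 0.0607). Nearest to *Pfkfb3* were *Ptpro*, *Kank1* and *Osbp2*, at 0.040, 0.041 and 0.043. Of these *Kank1* rose (log2 fold change 0.43, adjusted p = 0.014), while *Ptpro* (0.36, adjusted p = 0.0744) and *Osbp2* (0.39, adjusted p = 0.0895) did not pass. These genes were picked for their likeness to a gene already known to differ, so their calls are no separate support. With 1 library left out, *Aldh2* kept its call without WT replicate 2 or 3, *Sema4b* without WT replicate 3 and *Kank1* in 5 of 7 fits, and *Etv5*, *Ptpro* and *Osbp2* passed without WT replicate 3.

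Markers of several cell types moved with genotype, and in bulk tissue fewer cells of a type cannot be told apart from less RNA per cell. The counts of markers below are to be read beside the shares over all genes. EdgeR called 1.57% of all genes and DESeq2 9.13%, and 20.9% had an unadjusted p under 0.05. The genotypes did not overlap in 13.5% of all genes on the lower and 13.4% on the higher side. Summed CPM of 12 endothelial markers was 644 to 716 in the knockout-labelled libraries and 725 to 1093 in WT. EdgeR called 1 of them lower and DESeq2 3, and 6 were lower without overlap. For 10 pericyte and smooth muscle markers the sum was 434 to 536 against 755 to 995. EdgeR called 2 lower, DESeq2 4 lower and 1 higher, and 4 were lower and 1 higher without overlap. For 7 red cell markers the sum was 27.4 to 63.1 against 154 to 470. EdgeR called 1 lower and DESeq2 7, and 7 were lower without overlap (median log2 fold change -2.47). For 10 proliferation genes the sum was 244 to 336 against 410 to 733. EdgeR called none, DESeq2 called 9 lower, and 10 had an unadjusted p under 0.05. For 13 skeletal muscle markers it was 63.1 to 69.2 against 101 to 131, with 10 called lower, and *Myh4* was at 0 in at least 1 library. The sum understates the shift of the single muscle markers, whose median log2 fold change was -3.25, with 12 lower and 1 higher. Astrocyte markers had a higher sum, 14677 to 17501 against 10439 to 14383 CPM, but 4 of the 8 were higher and 4 lower (median log2 fold change 0.0089), with none called by edgeR, 1 lower and 1 higher by DESeq2, and 2 lower and 1 higher at an unadjusted p under 0.05. Neuron markers had the sums 5107 to 6260 against 1990 to 5113 CPM (3800 to 5113 without WT replicate 3), which overlap by the lowest and the highest library only. All 8 were higher, with a median log2 fold change of 0.49, and 4 of them did not overlap. Sums overlapped for 8 oligodendrocyte markers (23944 to 29452 against 24210 to 35403), 8 microglia markers (1149 to 1364 against 1215 to 1542), 10 macrophage and monocyte markers (2270 to 3039 against 2229 to 4486), 8 neutrophil markers (68.1 to 85.8 against 59.6 to 132) and 8 fibroblast markers (428 to 2563 against 1284 to 2125), with none called by edgeR in these lists or among the neuron markers. At an unadjusted p under 0.05, 4 macrophage and monocyte markers were lower and 1 marker differed in each of the other 5 lists, and DESeq2 called 2 macrophage and monocyte markers and 1 fibroblast marker lower. The part of these shifts in the values of *Hif1a*, *Ldha*, *Bnip3*, *Pfkfb3* and the wider lists was not tested.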

How the data were processed

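Poly-A RNA of 7 contused cords was sequenced, and the authors deposited raw counts per gene, without normalization. They aligned stranded reads to GRCm38.p6 with Tophat2 and counted them with HTSeq 0.10.0 (FastQC 0.10.1 for quality); the annotation release and strand setting are not given in the sources used here. Genes were filtered with filterByExpr, normalized with TMM and tested with edgeR 4.0.16 (quasi-likelihood test, R 4.3.3, limma 3.58.1), with Benjamini-Hochberg adjustment over all 15743 genes tested and a threshold of 0.05. Log2 levels used a prior count of 2. Alternatives were DESeq2 1.42.0, limma-voom, other size factors and filters, sex, a replicate block and each library left out. The test was checked on simulated data. Replicates are separate mice. Each library held 38529644 or more counts.

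Symbols, positions and exonic lengths came from GENCODE M21 (21939 of 21965 identifiers matched), similar transcripts from blastn 2.17.0 (at least 90% identity over at least 76 bases), and promoters from RefSeq (GRCm38.p6). Members and lists were chosen with earlier results of these data known, and 1 listed gene is not reported here and was taken out of its list. Named besides the members were called genes of the pathway lists or, failing 4, those of smallest p until 4 were named, called bHLH-PAS relatives, and the 3 nearest profiles of *Hif1a* and of each called member. *Ahr*, *Gm49321*, *Nr1d1*, *Dbp*, *Eno2*, *Aldoc*, *Pfkm* and *Slc2a3* were named after their values were seen. Plots used matplotlib 3.10.9.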

Additional observations from a re-analysis of the deposited data

Results flagged for a closer look

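A single WT library lay far from the other 3 in 3 of the 31 named genes checked. Chance flags about 1 in 20 groups that are independent. These genes share libraries and some were picked on these same values, so that rate is no yardstick here. *Adm* was at 3.71 CPM in WT replicate 4 and at 5.47 to 5.58 CPM in the others, a gap of 0.941 of the group's range. *Pfkfb3* was at 106 CPM in WT replicate 3 and at 120 to 121 CPM in the others (0.956 of the range). That library was the lowest of WT and the knockout-labelled values were higher, so leaving it out could not make the genotypes overlap. *Osbp2* was at 23.3 CPM in the same library and at 28.3 to 29.2 CPM in the others (0.857 of the range). It was picked for its likeness to *Pfkfb3*, so its flag is not a separate one.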

How the results depend on the processing

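Settings changed calls more than sizes. DESeq2 called 922 lower and 573 higher genes in place of 144 and 103, 1 lower and 2 higher of the 10 hypoxia-inducible genes in place of 0 and 1, and 3 lower and 7 higher pathway genes in place of 0 and 0. *Pfkfb3* lost its call, leaving 0 of the 10 genes higher, with limma-voom, with no filter beyond 1 count, with sex as a covariate and with the replicate block. The replicate block (edgeR) called 0 genes lower and 0 higher, with 1590 at an unadjusted p under 0.05. Same-numbered mice did not deviate together for numbers 1 and 3 (correlations of -0.174 and -0.295) and did so weakly for number 2 (0.183). Knockout-labelled replicate 2 correlated best with its own number, and knockout-labelled replicates 1 and 3 did not. Same-numbered mice also share their sex, and nothing in the labels ties them to a litter or day, so the block was not taken as a pairing. With each library left out in turn, 27 to 439 genes were called lower and 30 to 291 higher, the most without WT replicate 3 and the fewest without knockout-labelled replicate 1. Of the 10 genes 0 to 1 were lower and 0 to 1 higher, and of the pathway genes 0 to 1 lower and 0 to 5 higher. The cause was not tested. The median log2 fold change of the 10 genes stayed between -0.058 and -0.012. Near 0, the sign changed for *Adm* (-0.0013 with upper-quartile factors, -0.11 with the replicate block, -0.10 to 0.14 with a library left out), *Pgk1* (-0.00050 with the block, -0.0026 to 0.081 with a library left out) and *Pdk1* (-0.063 to 0.024 with a library left out). *Hif1a*, *Ldha*, *Bnip3* and *Pfkfb3* kept their direction in all 15 alternatives.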
